A study of Mus musculus with 2 samples.

Results

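The genes of the transforming growth factor beta (TGF-β) ligand, receptors and Smad proteins were followed by symbol in single-cell RNA counts of hippocampal microglia, macrophages that live in the brain, from mice 3 weeks after birth. They are 10 genes: Tgfb1, Nrros, Tgfbr1, Tgfbr2, Smad2, Smad3, Smad4, Smad7, Skil and Ski. The FGR library came from mice with fetal growth restriction, a condition of impaired growth before birth, and the Control library from Control mice. Both groups carried the genotype Tmem119-tdTomato+/-, a fluorescent reporter of Tmem119, and Tmem119-positive cells had been sorted by flow cytometry before 3′ droplet sequencing. How many animals each library pools is unknown. Because each group is 1 library, differences between FGR and Control could not be tested against a spread between animals, and all are described only. A barcode counted as a cell when it held at least 1500 unique molecular identifiers (UMIs, each counted once per captured transcript), at least 200 genes and at most 10% of UMIs from mitochondrially coded genes.

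TGF-β is secreted as a latent dimer that stays inactive until it is released from its propeptide. On microglia the latent ligand is tethered by NRROS, and released TGF-β binds TGFBR2, which then phosphorylates TGFBR1. The activated type I receptor phosphorylates SMAD2 and SMAD3, which join SMAD4 and enter the nucleus, while SMAD7 blocks the receptor and SKI and SKIL repress Smad-dependent transcription. In the brain this pathway is known for keeping microglia in their mature, resting state.

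The FGR library gave 8618 cells with 45441515 UMIs and the Control library 10687 cells with 53560293 UMIs, 19305 cells in all. The median cell held 4919.5 UMIs and 2067 genes in FGR and 4657 UMIs and 2057 genes in Control. The sorted cell type fitted its markers: at least 6 of 12 microglial markers had a UMI in 99.4% of FGR cells and 99.8% of Control cells. Barcodes poor in those markers, below 0.5% of their UMIs, numbered 57 in FGR and 22 in Control. The libraries shared 31 cell barcodes. Doublets were not removed. All 10 genes were measured, meaning that they reached 50 CPM (a gene's UMIs scaled to a common library total) in at least 1 library. Smad2 did so in Control only.

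Promoter sequence is shown for 3 members, the latent ligand, its tether on microglia and the ligand-binding receptor, because the first 2 were the members with the lowest ratios and the receptor was level between the libraries. The 250 bases before the start site are from RefSeq (GRCm38.p6), 5′ to 3′ on the gene's strand, and 6 of the 10 members were matched in that table. Capitals mark a Smad box, letters CAGAC, or a PU.1 box, letters GAGGAAG, searched on both strands and not overlapping each other.
Nrros (chr16:32165595-32165844, minus strand): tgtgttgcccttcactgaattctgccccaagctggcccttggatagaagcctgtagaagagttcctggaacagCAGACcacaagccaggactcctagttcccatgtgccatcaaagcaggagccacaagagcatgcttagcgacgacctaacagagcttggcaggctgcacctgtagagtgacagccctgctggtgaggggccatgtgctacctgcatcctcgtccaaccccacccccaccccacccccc
Tgfb1 (chr7:25686752-25687001, plus strand): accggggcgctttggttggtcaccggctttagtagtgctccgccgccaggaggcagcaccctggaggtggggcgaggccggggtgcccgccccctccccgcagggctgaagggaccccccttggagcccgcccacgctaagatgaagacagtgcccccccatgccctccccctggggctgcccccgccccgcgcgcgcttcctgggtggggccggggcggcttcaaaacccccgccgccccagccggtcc
Tgfbr2 (chr9:116175364-116175613, minus strand): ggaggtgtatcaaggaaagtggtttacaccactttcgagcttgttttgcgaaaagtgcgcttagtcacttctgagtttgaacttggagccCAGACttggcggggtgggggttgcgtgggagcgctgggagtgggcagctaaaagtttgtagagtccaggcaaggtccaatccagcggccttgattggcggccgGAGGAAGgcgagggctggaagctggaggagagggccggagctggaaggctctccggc
A Smad box was held by 42.2% of all 32851 promoters of that length and a PU.1 box by 10.6%. The palindromic double Smad box GTCTAGAC was held by 0.167% of them and an AP-1 site, letters TGACTCA, by 4.46%, and none of the 3 shown held either. The Tgfb1 stretch held none of the 4 motifs, and 75.2% of its bases were G or C, against 58.4% in Nrros. A match of letters is a description of the sequence and no evidence of binding.

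Across the 10 members, Smad7 was higher in FGR and Tgfb1 and Nrros were lower, while the other 7 lay within 1.2-fold of Control. Of all genes measured, 81.2% also lay within 1.2-fold, so closeness between the libraries was not particular to these members. No member passed the rule of 1.5-fold, which asks that the whole 95% interval of the ratio lie beyond 1.5-fold. Of the 3512 genes measured, 2.48% passed it upward and 1.17% downward, 3.64% in all. At 1.2-fold, 1 member was higher and 2 were lower, beside 5.52% and 7.92% of all genes, or 13.4% in either direction. The median log2 ratio of FGR over Control was -0.03 over the members and -0.07 over all genes measured. Intervals here cover counting error only, and the spread between mice is not in them.

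**Figure D1:**
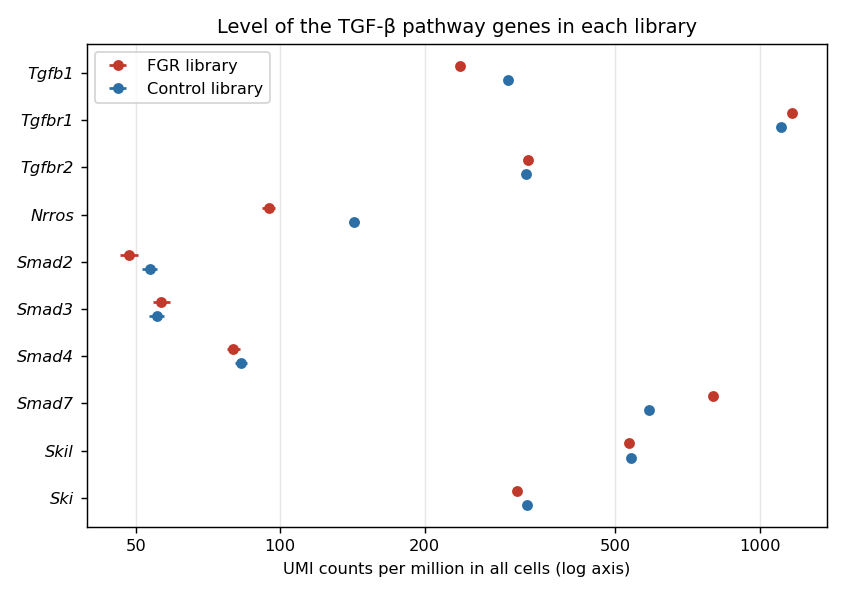
Levels of the 10 members in CPM on a log axis, FGR and Control, 1 library each, with 95% exact Poisson intervals that cover counting error only. Tgfbr1 sits highest, at 1167 CPM in FGR and 1109 CPM in Control, and Smad2 lowest, at 48.4 and 53.4 CPM.

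Levels count UMIs at the 3′ ends of transcripts and are not scaled to transcript length. Tgfbr1, the type I receptor, was highest in both libraries, and Smad7 came next, followed by Skil. In Control, Ski and Tgfbr2 followed, with overlapping intervals at 327.7 and 326.0 CPM, whereas in FGR their intervals were apart, at 312.0 and 328.5 CPM. Tgfb1, Nrros and Smad4 followed in that order in both libraries, and Smad3 and Smad2 were lowest.

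The ligand gene Tgfb1 (ENSMUSG00000002603, chr7 25687002–25705077, plus strand, GRCm38) encodes TGF-β1. It had 236.8 CPM in FGR (95% Poisson interval 232.3 to 241.3, 10759 UMIs) and 298.2 CPM in Control (293.6 to 302.9, 15972 UMIs). The ratio was 0.794 (0.775 to 0.814), with 7.12% of measured genes lower. The other ligand genes were scarce: Tgfb2 had 2.09 CPM in FGR and 0.49 CPM in Control, and Tgfb3 had 0.15 and 0.22 CPM. The call of Tgfb1 is near its limit, since its interval no longer lay wholly below 1/1.2 in 4 of the other settings tried, given in the closing part.

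Nrros (ENSMUSG00000052384, chr16 32142785–32165594, minus strand) encodes the transmembrane protein that holds latent TGF-β1 on microglia. It had 94.6 CPM in FGR (91.8 to 97.5) and 142.6 CPM in Control (139.5 to 145.9), a ratio of 0.663 (0.639 to 0.689). This was the lowest ratio of the 10, with 1.59% of measured genes lower still, and its interval spanned 1/1.5. Lrrc32, which encodes the tether used by other immune cells, had 0.26 CPM in each library. At an equal depth of 1500 UMIs per cell, Nrros had a UMI in 13.6% of FGR cells (Clopper-Pearson 12.9 to 14.3) and 19.2% of Control cells (18.5 to 19.98). Without thinning those shares were 36.7% and 47.9%.

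The receptor genes stayed within 1.2-fold between the libraries. Tgfbr1 (ENSMUSG00000007613, chr4 47353222–47414931, plus strand) had 1167 CPM in FGR and 1109 CPM in Control, a ratio of 1.05 (1.04 to 1.06). Tgfbr2 (ENSMUSG00000032440, chr9 116084293–116175360, minus strand) had 328.5 CPM in FGR and 326.0 CPM in Control, and the interval of its ratio, 0.986 to 1.03, held 1. The UMI ratio of Tgfbr1 to Tgfbr2 was 3.55 in FGR and 3.40 in Control. Relative to its ligand gene, Tgfbr1 stood at 4.93 UMIs per Tgfb1 UMI in FGR and 3.72 in Control. In cells thinned to 1500 UMIs, Tgfbr1 had a UMI in 79.6% of FGR cells and 77.7% of Control cells, and Tgfbr2 in 37.2% and 37.9%. Both receptors were seen together in 30.0% of FGR cells and 29.5% of Control cells, and the product of the single shares was 29.6% and 29.4%.

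The signal-carrying Smad genes were low and close between libraries. Smad2, a receptor-activated Smad (ENSMUSG00000024563, chr18 76241580–76310963, plus strand), had 48.4 CPM in FGR and 53.4 CPM in Control, a ratio of 0.906 (0.857 to 0.959). Smad3, the other (ENSMUSG00000032402, chr9 63646767–63757994, minus strand), had 56.6 CPM in FGR and 55.3 CPM in Control, and its interval, 0.969 to 1.08, held 1. Smad4, their shared partner (ENSMUSG00000024515, chr18 73639009–73703780, minus strand), had 79.9 and 82.8 CPM, with an interval of 0.923 to 1.01.

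Smad7, the inhibitory Smad (ENSMUSG00000025880, chr18 75367529–75395935, plus strand), was the member with the highest ratio. It had 798.3 CPM in FGR (790.1 to 806.5, 36275 UMIs) and 588.7 CPM in Control (582.2 to 595.3, 31532 UMIs), a ratio of 1.36 (1.34 to 1.38), above that of 96.4% of measured genes. After thinning, 62.2% of FGR cells (61.2 to 63.2) and 55.0% of Control cells (54.0 to 55.9) had a UMI of it. The unthinned shares were 89.5% and 86.5%. The share of thinned cells with at least 5 Smad7 UMIs was 3.27% in FGR and 0.973% in Control, and the variance of its thinned counts over their mean was 1.64 and 1.33. The counts of Smad7 were therefore higher on average and wider in spread among cells in FGR, and whether the spread goes beyond the higher level was not tested. The variance over the mean was also higher in FGR for Tgfb1, Tgfbr1, Tgfbr2, Smad2 and Smad3, and lower for Nrros, Smad4, Skil and Ski. Relative to Smad2, Smad7 stood at 16.5 UMIs per UMI in FGR and 11.0 in Control.

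The genes of the co-repressors were close between libraries. Skil (ENSMUSG00000027660, chr3 31095058–31122577, plus strand) had 533.9 CPM in FGR and 539.7 CPM in Control, with a ratio interval of 0.972 to 1.01. Ski (ENSMUSG00000029050, chr4 155154075–155222592, minus strand) had 312.0 CPM in FGR and 327.7 CPM in Control, a ratio of 0.952 (0.931 to 0.973).

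At the deposited depth Tgfbr1, Smad7, Skil, Tgfbr2, Ski and Tgfb1 had a UMI in most cells of each library. Tgfb1, the least often seen of them, had one in 65.9% of FGR cells and 71.2% of Control cells. Nrros, Smad2, Smad3 and Smad4 were seen in a minority of cells. A cell held a median of 6 Tgfbr1 UMIs in FGR and 5 in Control, and 3 and 2 of Smad7. The median in both libraries was 2 for Skil, 1 for Tgfb1, Tgfbr2 and Ski, and 0 for Nrros, Smad2, Smad3 and Smad4. The highest count in any cell was 32 for Tgfbr1 in FGR and 34 in Control, and 29 and 25 for Smad7. After thinning to 1500 UMIs, Tgfb1 had a UMI in 29.7% of FGR cells and 35.6% of Control cells, a gap in the direction of its level. Skil was seen in 52.0% of FGR cells and 51.6% of Control cells, and Ski in 36.8% and 37.7%. Smad4 was seen in 11.1% of FGR cells and 11.3% of Control cells. Smad2 was seen in 7.17% of FGR cells and 7.85% of Control cells, and Smad3 in 7.60% and 7.85%. A thinned cell held a UMI of a median of 3 of the 10 members in both libraries, and 1.39% of FGR cells and 1.11% of Control cells held none.

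Of 6 pairs of members examined, a further pair from the latency step and a pair of inhibitors are given beside the product of their single shares. Tgfb1 and Nrros were both seen in 3.70% of FGR cells, where the product of shares was 4.04%, and in 6.96% of Control cells, where it was 6.84%. Smad7 and Skil were both seen in 33.4% of FGR cells against a product of 32.3%, and in 29.2% of Control cells against 28.3%.

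**Figure D2:**
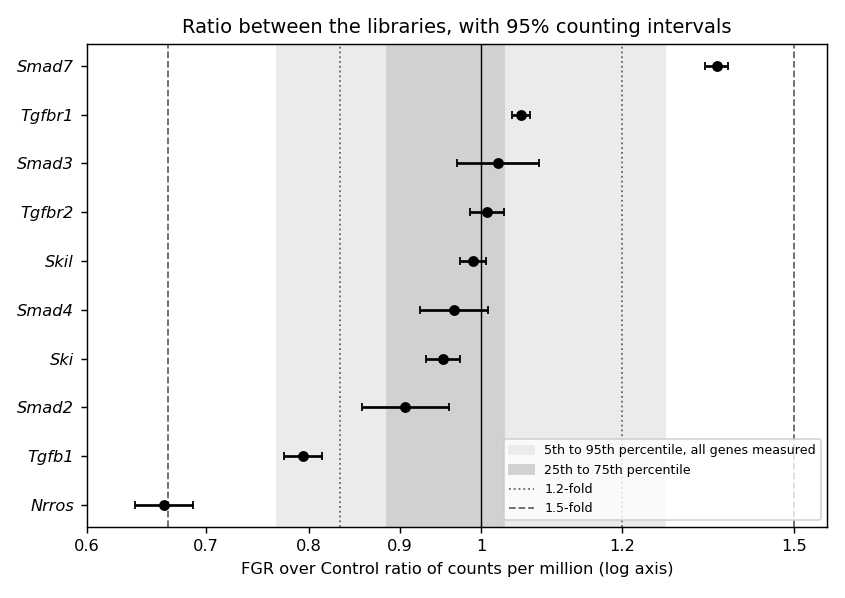
Ratio of FGR over Control for each member on a log axis with 95% exact conditional intervals, over grey bands for the spread of all 3512 measured genes and lines at the 1.2-fold and 1.5-fold limits. Smad7 at 1.36 lies above the interval of 0.767 to 1.27 that holds the 5th to 95th percentile of genes, Nrros at 0.663 lies below it, and Tgfb1 at 0.794 lies inside it.

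RNA outside cells and cells of other kinds were measured beside these results. In barcodes of 10 to 100 UMIs, which hold mostly free RNA, Nrros had 70.3 CPM in FGR and 139.7 CPM in Control, Tgfb1 169.2 and 206.0, and Smad7 456.5 and 299.0. The directions in free RNA were thus those seen in cells. Free RNA made up an estimated 14.9% of cell UMIs in FGR and 9.96% in Control. The estimate rests on 15 markers in FGR and 24 in Control. Tgfbr1 had 887.0 CPM in free RNA of FGR and 853.9 CPM in that of Control. In barcodes poor in microglial markers it had 51.5 CPM in FGR (31.0 to 80.4) and 55.4 CPM in Control (22.3 to 114.2). In FGR this is less than the estimated share of free RNA would give, so that estimate may be too high. In the 79 barcodes poor in microglial markers, with a median of 4453 UMIs, Nrros had 1 UMI in all and was seen in 1.27% of barcodes, against 43.1% of the other 19226 cells at a median of 4768 UMIs. Tgfb1 was seen in 13.9% of those barcodes against 69.0% of the other cells, Smad7 in 43.0% against 88.0%, and Smad4 in 41.8% against 32.2%. Lists of other cell types' markers also differed. The 8 astrocyte markers summed to 340.8 CPM in FGR and 210.8 CPM in Control, of which Slc1a3 gave 297.9 and 163.3 CPM, and the other 7 summed to 42.9 and 47.5 CPM. The 8 border macrophage markers summed to 275.2 CPM in FGR and 215.7 CPM in Control, with 2 at 0 in Control, and without Stab1 to 40.8 and 42.0 CPM. The 8 oligodendrocyte markers summed to 187.4 CPM in FGR and 151.8 CPM in Control, and its members did not share a direction. In the astrocyte and border macrophage lists a single gene thus carried the higher sum in FGR, and the rest summed lower there. In the border macrophage list that lower rest came from Mrc1, at 33.6 CPM in FGR and 40.3 CPM in Control. Pf4, Ms4a7 and F13a1 were each higher in FGR, with the interval of the ratio above 1. Cbr2, Cd163 and Lyve1 were also higher there, but their intervals held 1. Cd163 and Lyve1 each had 4 UMIs in FGR and 0 in Control. The remaining astrocyte markers were mixed, with Gja1 and Gfap higher in FGR and Aldoc and Slc1a2 lower. The intervals of Clu, Aqp4 and Mfge8 held 1. The 8 vascular markers summed to 101.2 CPM in FGR and 54.1 CPM in Control, the 8 neuron markers to 4.73 and 11.1 CPM, and the 5 red blood cell markers to 34.0 and 121.7 CPM. The 10 blood leukocyte markers summed to 7.26 CPM in FGR and 9.71 CPM in Control, with 2 at 0 in FGR and 4 at 0 in Control. Leaving out the barcodes poor in microglial markers and cells with at least 10 UMIs of other cell types' markers left Nrros at 0.670, Tgfb1 at 0.801 and Smad7 at 1.36. Subtracting the free RNA profile left them at 0.692, 0.807 and 1.38.

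Immediate early genes, which cells switch on within minutes of a stimulus, tissue handling included, also differed between the libraries. The 26 genes listed summed to 46891 CPM in FGR and 33681 CPM in Control. Of the 23 measured, 18 had a ratio above 1 and 5 below, among the latter Egr1 at 0.755 and Egr2 at 0.456. Cells of both libraries were therefore placed in 5 strata by their UMIs of these genes after thinning. The strata did not match the libraries fully: in the highest, these genes made up 7.30% of UMIs in FGR and 6.22% in Control. In every stratum, Nrros and Tgfb1 were lower and Smad7 higher in FGR, with all 5 intervals on that side of 1. Tgfbr1 also had all 5 intervals above 1, at ratios of 1.04 to 1.09. Ski and Smad2 were below 1 in all 5 strata, with the interval below 1 in 4 and 1 of them. The ratios ran over 0.573 to 0.666 for Nrros, 0.751 to 0.843 for Tgfb1 and 1.17 to 1.37 for Smad7. With FGR strata weighted to the Control proportions, the ratios were 0.642 for Nrros, 0.797 for Tgfb1 and 1.305 for Smad7. In the lowest stratum Smad7 had 657.4 CPM in FGR and 562.2 CPM in Control, and in the highest 840.1 and 627.3 CPM.

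Skil was the member that moved most across those strata. In FGR it had 384.5, 490.3, 518.8, 572.4 and 596.7 CPM from the lowest stratum to the highest, and in Control 382.8, 496.9, 595.7, 656.4 and 708.5 CPM. The top over the bottom stratum was 1.55 (1.48 to 1.63) in FGR and 1.85 (1.77 to 1.93) in Control, above 95.9% and 97.0% of genes. Near equal over all cells, Skil was lower in FGR in the upper 3 strata, at ratios of 0.871, 0.872 and 0.842. Nrros also stood higher in the upper strata, with 77.3, 92.2, 95.9, 102.1 and 96.7 CPM in FGR and 121.6, 138.4, 144.6, 160.9 and 168.8 CPM in Control. Smad3 had a top over bottom ratio of 1.25 in FGR and 1.24 in Control, and Ski of 1.10 and 1.15. Tgfb1 had 229.9 CPM in the lowest and 229.2 CPM in the highest stratum of FGR, and 272.7 and 305.2 CPM in Control. Tgfbr1, Tgfbr2 and Smad2 hardly moved, with top over bottom ratios of 0.969, 1.01 and 1.03 in FGR and 1.01, 1.04 and 0.955 in Control.

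**Figure D3:**
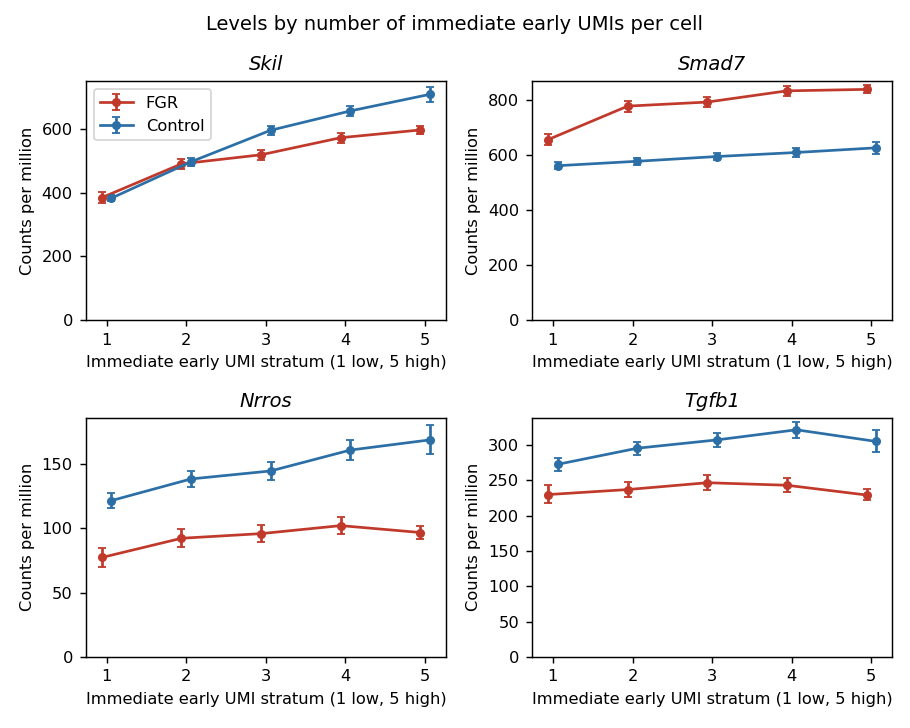
Levels in CPM of Skil, Smad7, Nrros and Tgfb1 across 5 strata of immediate early gene UMIs per cell, from low to high, in FGR and Control, with 95% exact Poisson intervals. Skil climbs from the lowest to the highest stratum in both libraries, and the Nrros and Tgfb1 points of FGR lie below those of Control in each stratum.

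Cells were also grouped by genes that mark known microglial states, with limits set after the data were seen, so each class is a range of a score and not a cell type. A cell could fall in more than 1 class, so the 5 classes are not separate sets of cells. The class rich in Ccl3 and Ccl4, chemokine genes, held 24.2% of FGR cells and 11.7% of Control cells. In it Smad7 had 846.8 CPM in FGR and 653.7 CPM in Control, and Nrros 108.8 and 158.9 CPM. In cells rich in the interferon genes, Smad7 had 650.1 CPM in 189 FGR cells and 614.1 CPM in 214 Control cells. The interval of that ratio held 1, with an upper bound of 1.18. Tgfb1 and Nrros were below 1 in all 5 classes, with the interval below 1 in 4, and Smad7 was above 1 in all 5, with the interval above 1 in 3. A ratio below 1 in all 5 classes was not particular to Tgfb1 and Nrros. Tgfbr2 (0.740 to 0.980) and Smad2 (0.631 to 0.907) also had it, with the interval below 1 in 2 and 0 classes. The class rich in myelin genes held 34 FGR cells and 244 Control cells, and the microglial gene Csf1r stood at 0.672 there, beside 0.497 for Nrros. Among the classes, Tgfbr1 was lowest in the proliferation class, with 793.8 CPM in FGR and 855.8 CPM in Control. It had 875.4 and 996.8 CPM in the interferon class, and in each library the intervals of these 2 classes overlapped. In the class rich in Lgals3 and Lpl, genes of activated microglia, Tgfbr1 had 995.2 CPM in 306 FGR cells and 936.2 CPM in 264 Control cells, and Tgfbr2 310.0 and 363.7 CPM. In the proliferation class Tgfbr2 stood at 168.2 CPM in FGR (108.8 to 248.3) and 185.0 CPM in Control (126.6 to 261.2), its lowest among the 5 classes. These values rest on 25 UMIs in 19 FGR cells and 32 UMIs in 24 Control cells. The FGR interval overlapped that of the myelin class, 176.8 to 324.2. In the barcodes poor in microglial markers Tgfbr2 was lower, at 149.1 CPM in FGR and 174.1 CPM in Control. Near the limit of the class, at it or 1 UMI below, were 486 FGR and 545 Control cells for the interferon score, 230 and 305 for the Lgals3 and Lpl score, 375 and 265 for the Ccl3 and Ccl4 score, 52 and 275 for the myelin score and 11 and 19 for the proliferation score. In cells of none of the classes, 6171 in FGR and 8852 in Control, the ratios were 1.36 for Smad7, 0.812 for Tgfb1 and 0.644 for Nrros.

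Cells were also split into 3 bins of UMI depth. From the shallowest bin to the deepest, Nrros had ratios of 0.473, 0.683 and 0.665 and Tgfb1 had ratios of 0.854, 0.830 and 0.730. Both stayed below Control at each depth.

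**Figure D4:**
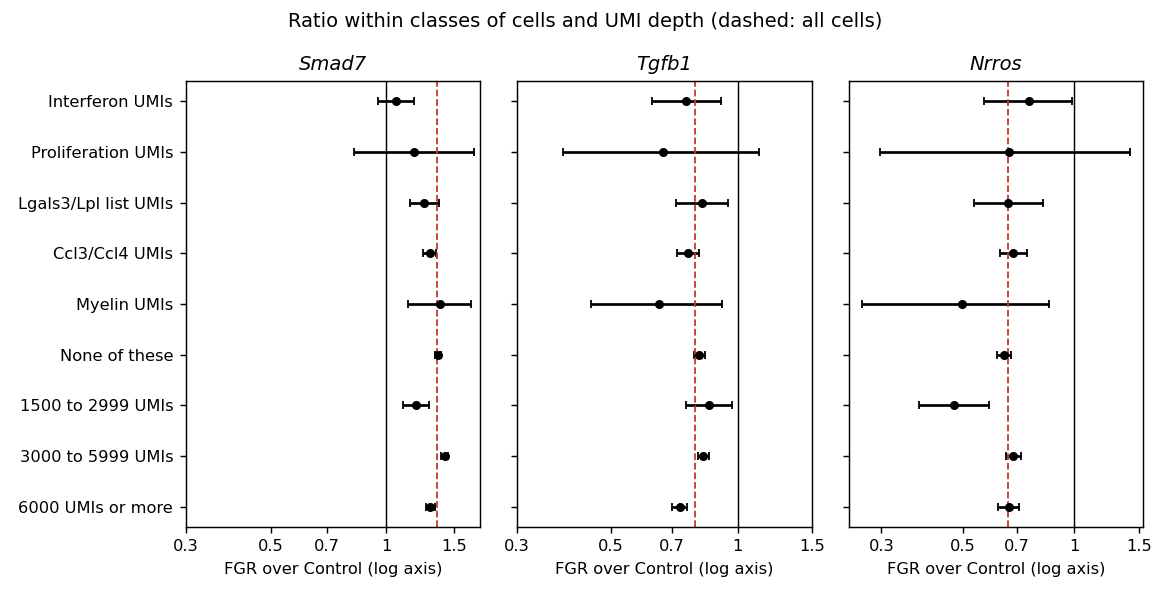
Ratio of FGR over Control for Smad7, Tgfb1 and Nrros on a log axis in 5 classes of cells, in cells of none of them and in 3 bins of UMI depth, with 95% exact conditional intervals and a dashed line at the ratio over all cells. Nrros and Tgfb1 lie below 1 in all 5 classes and Smad7 above 1, and the intervals widen in the proliferation class of 19 FGR and 24 Control cells.

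Levels over the 10 pools, 5 strata in each of the 2 libraries, were compared with those of every measured gene. The pools share libraries and depth, so the correlations only describe them. Each match is the highest among all measured genes. The members also moved by unlike amounts over the pools. The log2 range was 0.125 for Tgfbr1, 0.182 for Tgfbr2 and 0.239 for Smad2, against 1.12 for Nrros. Nrros ran closest to Trim33 and Bptf (Pearson r 0.993 and 0.992), Smad7 to Dennd4a and Tagap (0.990 and 0.990), Tgfb1 to Fubp1 and Cotl1 (0.982 and 0.982), and Skil to Ifitm10 and Il17ra (0.983 and 0.979). Smad3 was nearest to Chd7 and Camsap1 (0.983 and 0.969), Tgfbr1 to Itm2c and Cd9 (0.981 and 0.962), Ski to Fam114a2 and Kat6a (0.972 and 0.964) and Smad2 to Agps and Pum2 (0.968 and 0.961). Tgfbr2, nearest to Ddx21 and Il13ra1 (0.879 and 0.842), and Smad4, nearest to Larp4 and Tor1aip2 (0.880 and 0.819), had the weakest matches.

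Beyond the members, 72 other genes of the pathway were listed, of which 33 were measured. At 1.5-fold 0 were higher and 0 lower, and at 1.2-fold 2 were higher and 1 lower, with a median log2 ratio of -0.08. Over all measured genes, 2.48% were higher and 1.17% lower at 1.5-fold and 5.52% and 7.92% at 1.2-fold, so the pathway counts were near or below that background. Tgif1, a Smad co-repressor, had 193.4 CPM in FGR and 144.6 CPM in Control, a ratio of 1.34. Pik3r1, a regulatory subunit of PI3-kinase, had 646.6 CPM in FGR and 430.3 CPM in Control, with a ratio interval of 1.48 to 1.53. Rnf111, a ubiquitin ligase that removes SKIL and SMAD7, was the lower gene, with 96.7 CPM in FGR and 121.0 CPM in Control, and this call was lost in 7 of the other settings. Among the receptor genes, Eng stood at 1.09 and Tgfbrap1 at 0.842, and among the genes of ligand activation, the integrin subunit gene Itgb5 had 1199 CPM in FGR and 1046 CPM in Control.

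Of 22 listed TGF-β target genes 13 were measured, and 5 were higher at 1.5-fold with none lower, while at 1.2-fold 8 were higher and 1 was lower. The background over all genes was 2.48% higher and 1.17% lower at 1.5-fold and 5.52% and 7.92% at 1.2-fold. The median log2 ratio was 0.42. Id2, an inhibitor of basic helix-loop-helix factors, had 465.0 CPM in FGR and 103.3 CPM in Control. Klf10, a transcription factor gene induced early by TGF-β, had 65.9 CPM in FGR and 28.3 CPM in Control. Bcl2l11, a pro-apoptotic gene, was the lower gene, with 58.8 CPM in FGR and 84.1 CPM in Control. Pmepa1 and Ldlrad4, feedback inhibitors of the pathway, were level, at 757.6 and 109.5 CPM in FGR and 754.2 and 115.7 CPM in Control. Several targets also respond to other stimuli: 3 of the 13 are on the immediate early list, and over the other 10 the count at 1.5-fold was 4 higher and the median 0.29. With FGR strata weighted to the Control proportions, the 13 gave 4 higher and a median of 0.19.

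Of 20 microglial genes that are lost without TGF-β signalling, 17 were measured, and 3 were lower at 1.2-fold, none past 1.5-fold, where 7.92% of all measured genes were lower at 1.2-fold. Sall1, a transcription factor of microglial identity, had 362.4 CPM in FGR and 541.8 CPM in Control, and the purine receptor gene P2ry12 had 2700 and 3397 CPM. P2ry13, a related receptor gene, had 376.6 CPM in FGR and 468.7 CPM in Control. The median log2 ratio of the 17 was -0.07, that of all genes measured, and with median of ratios scaling 1 of the 3 was past 1.2-fold. Of 19 genes that are raised without TGF-β signalling, 10 were measured, and 3 were higher at 1.5-fold with none lower, beside 2.48% and 1.17% of all measured genes. The 3 were Cxcl10, an interferon-induced chemokine gene, at 157.0 CPM in FGR and 21.2 CPM in Control, Ccl4 at 3745 and 1651 CPM, and Ccl3 at 1371 and 783.7 CPM. At 1.2-fold 6 of the 10 were higher and 1 was lower, and the median log2 ratio was 0.41. With FGR strata weighted to the Control proportions, 4 were higher and 1 was lower at 1.5-fold, and in cells of none of the classes, which leaves out those rich in Ccl3 and Ccl4, 2 of 9 measured were higher. Ccl2, another chemokine gene, was the lower one, at 142.7 CPM in FGR and 184.9 CPM in Control.

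**Figure D5:**
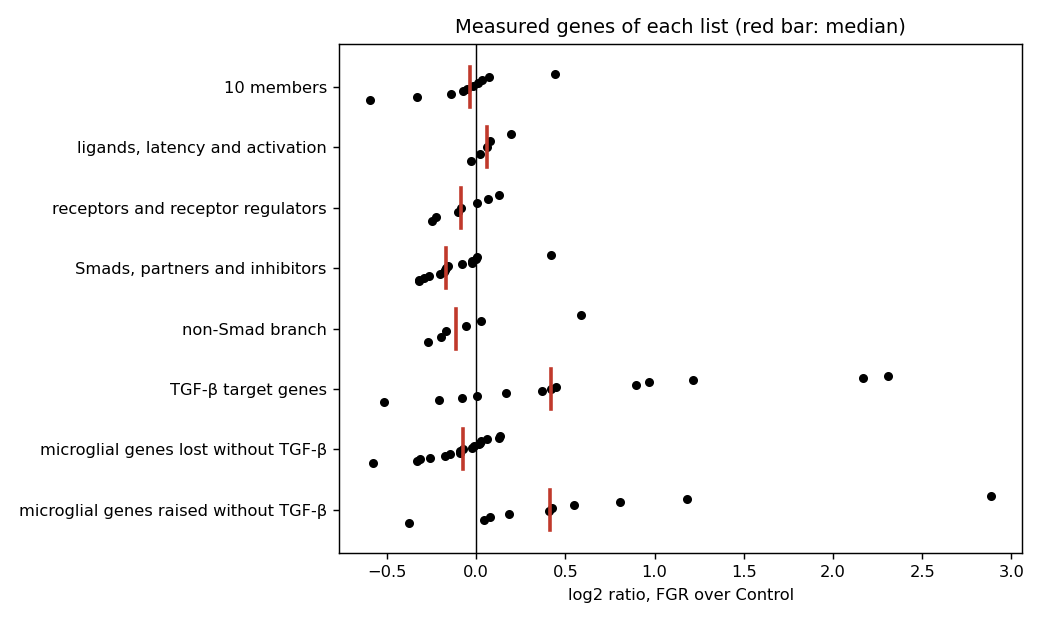
Log2 ratio of FGR over Control for each measured gene of the members, the other pathway lists, the target genes and the microglial gene lists, 1 point per gene and a red bar at each median. Cxcl10 lies farthest to the higher side, and the member genes lie between -0.59 and 0.44.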

How the data were processed

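RNA of hippocampal microglia from 1 FGR and 1 Control library was analysed, grouped by the sample titles. The authors deposited whole-number UMI counts for every gene and barcode without normalization or cell filter. Cell Ranger 4 made the matrices, per the file headers, whereas the submitters' processing notes list Cell Ranger 3.0, beside Seurat 5.0 and build mm10. The sources used here give neither the annotation nor the strand setting of the counting. Counts of symbols held by several IDs were summed, cells were called as the report states, and counts were summed per library and scaled to the UMI total (CPM). Intervals are exact Poisson for levels, exact conditional for ratios and Clopper-Pearson for shares, at 95%, and cover counting error only. Shares were compared after thinning each cell to 1500 UMIs with seed 1. Scripts used Python 3.11.15, numpy 2.4.6, scipy 1.17.1 and pandas 2.3.3, and were tested on simulated data.

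The members and lists were chosen with earlier results of these data known, and the limits of the cell classes after the data were seen. Named genes are the 10 members, up to 4 measured genes per list, chosen by absolute log2 ratio, and for each member the 2 genes most like it over 10 pools; Pmepa1, Ldlrad4, Bcl2l11, Ccl2, Csf1r, Tgfb2, Tgfb3 and Lrrc32 were named outside that rule or after their values were seen. Alternatives covered cell limits, doublets, other cell types, scaling, free RNA, cell weights, depth, immediate early strata, the minimum level and the fold. Some genes chosen by this rule are not reported here.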

Additional observations from a re-analysis of the deposited data

How the results depend on the processing

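The ratios of Tgfb1 (0.792 to 0.832), Nrros (0.642 to 0.695), Smad2 and Ski stayed below 1, and those of Smad7 (1.305 to 1.42) and Tgfbr1 (1.04 to 1.10) above 1, under the 16 settings that give a ratio. Skil (0.918 to 1.04), Smad3 (0.978 to 1.07), Smad4 (0.934 to 1.01) and Tgfbr2 (0.997 to 1.06) crossed 1. The 16 include the settings of a minimum of 20 CPM and of no minimum above 3 counts. Those only change which genes count as measured and cannot move a member's ratio. At 1.2-fold 1 member, Nrros, was lower in place of 2 without cells with at least 3 UMIs of other cell types' markers, with median of ratios scaling, with cells thinned to 1500 UMIs, and in cells of none of the classes. In each case Tgfb1 lost its call. The setting without cells with at least 3 other-type UMIs kept 3219 of 8618 FGR cells and 5343 of 10687 Control cells. With FGR strata weighted to the Control proportions, Nrros passed 1.5-fold, so 1 member was lower in place of 0. Over all genes, 70 were lower at that setting in place of 41. With a fold limit of 1.2 in place of 1.5, 1 member was higher and 2 were lower. The members' median log2 ratio, -0.03 as reported, was -0.0819 without cells with at least 3 other-type UMIs, 0.0337 with median of ratios scaling and -0.0765 with weighted strata.

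Of the other pathway genes, the count lower at 1.2-fold, 1 as reported, was 0 in 7 settings: without the 6% of cells with the most UMIs, with median of ratios scaling, free RNA subtracted, the mean of per-cell CPM, thinning, without marker-poor cells and cells with at least 10 other-type UMIs, and in cells of none of the classes. It was 2 with weighted strata, a minimum of 20 CPM and no minimum above 3 counts. The count higher at 1.2-fold, 2 as reported, was 1 with weighted strata and 9 with no minimum. At 1.5-fold, 0 as reported, it was 1 with median of ratios scaling, 1 with free RNA subtracted and 3 with no minimum. With no minimum more genes count as measured. Over all genes, those higher then went from 194 to 1315 at 1.2-fold and from 87 to 709 at 1.5-fold. Those lower at 1.2-fold went from 278 to 444 with a minimum of 20 CPM and to 950 with no minimum. Rises at these settings were thus not limited to the pathway. The causes of these shifts were not tested. The settings on marker-poor cells, cells of no class and barcodes shared by the libraries were chosen after seeing the data.

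No paired analysis was possible because each group is 1 library with no replicate numbers. A difference between these libraries cannot be told apart from one between animals, dissections or captures. At this depth the widest limits are for Smad2, Smad3 and the small classes, where counts are lowest, and the intervals and shares cover counting error only.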
